A study of Homo sapiens with 12 samples.

Results

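The genes described here are 10 loci known for lymphocyte development: PAX5, EBF1, TCF3, TCF4, IKZF1, IKZF2, IKZF3, BCL11A, BCL11B and BLK. The first 9 encode transcription factors, whereas BLK encodes a SRC-family tyrosine kinase of B cells and is not a transcription factor. They were taken by symbol, and a region was counted for a gene when the deposited annotation placed it inside the gene or within 5 kb of its start. For 5-hydroxymethylcytosine (5hmC) all 10 genes held regions, 216 of 327930 in the table, among 20430 genes. For 5-methylcytosine (5mC) 9 of the genes held 51 of 65534 listed regions, among 12654 genes, and TCF3 had no listed 5mC region. Every one of these regions and genes had enough counts to be tested.

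The cells were HL-60, an established human promyelocytic leukemia line. Differentiated cells had been grown with 1.5% DMSO (211 mM) for 7 days and were viable and positive for CD11b, a surface integrin of maturing myeloid cells; undifferentiated cells were viable and negative for it. Each state had 3 biological replicates of this 1 line, and DNA of each replicate was split between an antibody against 5mC (MeDIP) and one against 5hmC (hMeDIP), giving 12 libraries. Libraries of differentiated cells are called D1, D2 and D3 and those of undifferentiated cells U1, U2 and U3. The comparison is therefore one of fractions that differ in both treatment and CD11b, and these cannot be told apart. Antibody capture measures how much DNA with a mark was recovered and not the percentage of modified cytosines. Neither mark measures transcription, so whether these genes were expressed in either state was not measured here.

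In textbook B-cell development TCF3 and EBF1 act early and PAX5 then holds cells in the B lineage. IKZF1 encodes Ikaros, IKZF2 Helios and IKZF3 Aiolos, zinc-finger proteins of lymphoid cells, and IKZF1 also acts in earlier blood progenitors. BCL11A is needed for B cells and silences fetal globin genes, and BCL11B is needed for T-cell commitment. TET enzymes make 5hmC by oxidising 5mC, and 5hmC is known to collect in gene bodies and at enhancers.

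Of the 10 genes, 5 had a 5hmC region within 2 kb of a start, and the bases before a start of each are shown because their CpG content differs widely. The sequences are the 250 bases upstream of the start in the RefSeq promoter table (GRCh38.p14), written 5′ to 3′ in the direction of transcription with each CpG in capitals. TCF4 has 10 starts in that table and BCL11A has 5, and the most upstream one is given.
PAX5 (chr9:37034269-37034518, minus strand): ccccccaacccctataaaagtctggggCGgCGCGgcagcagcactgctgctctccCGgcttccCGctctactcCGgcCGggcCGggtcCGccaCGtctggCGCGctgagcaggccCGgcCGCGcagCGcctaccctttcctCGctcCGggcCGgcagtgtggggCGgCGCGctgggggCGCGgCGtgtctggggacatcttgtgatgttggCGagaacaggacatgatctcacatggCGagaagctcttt
EBF1 (chr5:159097957-159098206, minus strand): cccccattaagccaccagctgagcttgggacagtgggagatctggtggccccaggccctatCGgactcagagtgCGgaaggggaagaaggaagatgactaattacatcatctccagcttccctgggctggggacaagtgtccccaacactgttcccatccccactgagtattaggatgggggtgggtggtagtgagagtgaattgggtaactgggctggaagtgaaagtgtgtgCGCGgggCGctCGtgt
TCF3 (chr19:1652616-1652865, minus strand): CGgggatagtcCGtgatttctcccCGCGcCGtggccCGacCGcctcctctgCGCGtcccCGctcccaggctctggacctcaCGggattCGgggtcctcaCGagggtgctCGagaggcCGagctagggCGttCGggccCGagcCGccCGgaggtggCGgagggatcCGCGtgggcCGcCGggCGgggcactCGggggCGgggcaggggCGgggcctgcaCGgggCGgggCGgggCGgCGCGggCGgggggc
TCF4 (chr18:55635958-55636207, minus strand): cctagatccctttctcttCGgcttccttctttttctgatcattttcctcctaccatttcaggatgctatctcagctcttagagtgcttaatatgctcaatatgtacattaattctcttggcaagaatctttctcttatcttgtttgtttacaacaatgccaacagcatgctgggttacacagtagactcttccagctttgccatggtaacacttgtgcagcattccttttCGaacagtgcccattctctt
BCL11A (chr2:60553925-60554174, minus strand): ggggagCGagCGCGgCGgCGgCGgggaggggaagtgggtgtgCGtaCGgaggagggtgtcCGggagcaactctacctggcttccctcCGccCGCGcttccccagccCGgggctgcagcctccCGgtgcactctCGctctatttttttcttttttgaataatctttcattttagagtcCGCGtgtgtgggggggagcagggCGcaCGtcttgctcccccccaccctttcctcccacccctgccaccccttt
TCF3 had 36 CpGs in this window, and 4.85% of 35114 promoters had as many. PAX5 had 27 (17.7%), BCL11A 19 (34.6%), EBF1 6 (61.9%) and TCF4 2 (85.3%), against a median of 11 over all promoters. The E-box CANNTG, the motif bound by TCF3 and TCF4 proteins, reads the same on both strands as a pattern; it occurred 2 times before the EBF1 start, 1 time each before those of PAX5 and TCF4, and not in the windows of TCF3 and BCL11A. It is present in 61.8% of all promoters. A match of letters is not evidence of binding. IKZF1 (28 CpGs), BCL11B (17) and IKZF2 (4) had no listed region within 2 kb of a start. Region positions in the rest of the text are those of the deposited tables (hg19), and exons and introns were not told apart.

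Across the 10 genes 5hmC was more often higher than lower in differentiated cells. With TMM scaling, which assumes that most genes do not change, and edgeR's quasi-likelihood test, 8 genes passed an adjusted p of 0.05 with higher 5hmC, against 25.8% of all genes. No gene passed with lower 5hmC (25.8% of all genes), none had an unadjusted p under 0.05 in that direction, and DESeq2 called 0 lower and 5 higher. The median log2 fold change was 0.22 over the 10 genes and 0.0065 over all genes. Of their 216 regions 81 (37.5%) were higher and 25 (11.6%) lower, against 26.9% and 23.4% of all regions, and 110 passed in neither direction. In 79 regions every differentiated library was above every undifferentiated one, and in 37 below, against 26.2% and 26% of all regions. For summed genes the same was so in 8 (above) and 1 (below, IKZF3), against 27.6% and 29.5% of all genes. The median over these regions was 0.26, and over all regions -0.04.

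These counts depend on the scaling. Where counts were divided by library totals alone, 1 gene was higher (IKZF1) and 1 lower (IKZF3), and where TMM factors came from the strongest regions, 2 were higher (IKZF1 and BLK) and 1 lower (IKZF3). The median of all genes moved to -0.19 and -0.17 under these scalings, and 16.2% and 19.5% of called genes were then higher, against 49.9% with TMM. Of called regions 28.6% and 30.2% were then higher, against 53.6%. Of the 10 genes, 9 lay above the all-gene median of the same scaling with library totals, and 9 did so with strong-region factors. The exception under both was IKZF3. Rescaling moves all genes by a similar amount, so this count was all but fixed by the TMM fit and is no check of the rises. Region by region, 40 of the 81 higher and 25 of the 25 lower calls held under all 3 scalings, and 33 and 8 of them also without any single library. Both other scalings move estimates downward, so that falls passed under them, here and in the genes described next, is no check of the falls. Whether the total amount of 5hmC differed between the states cannot be told from these counts.

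**Figure D1:**
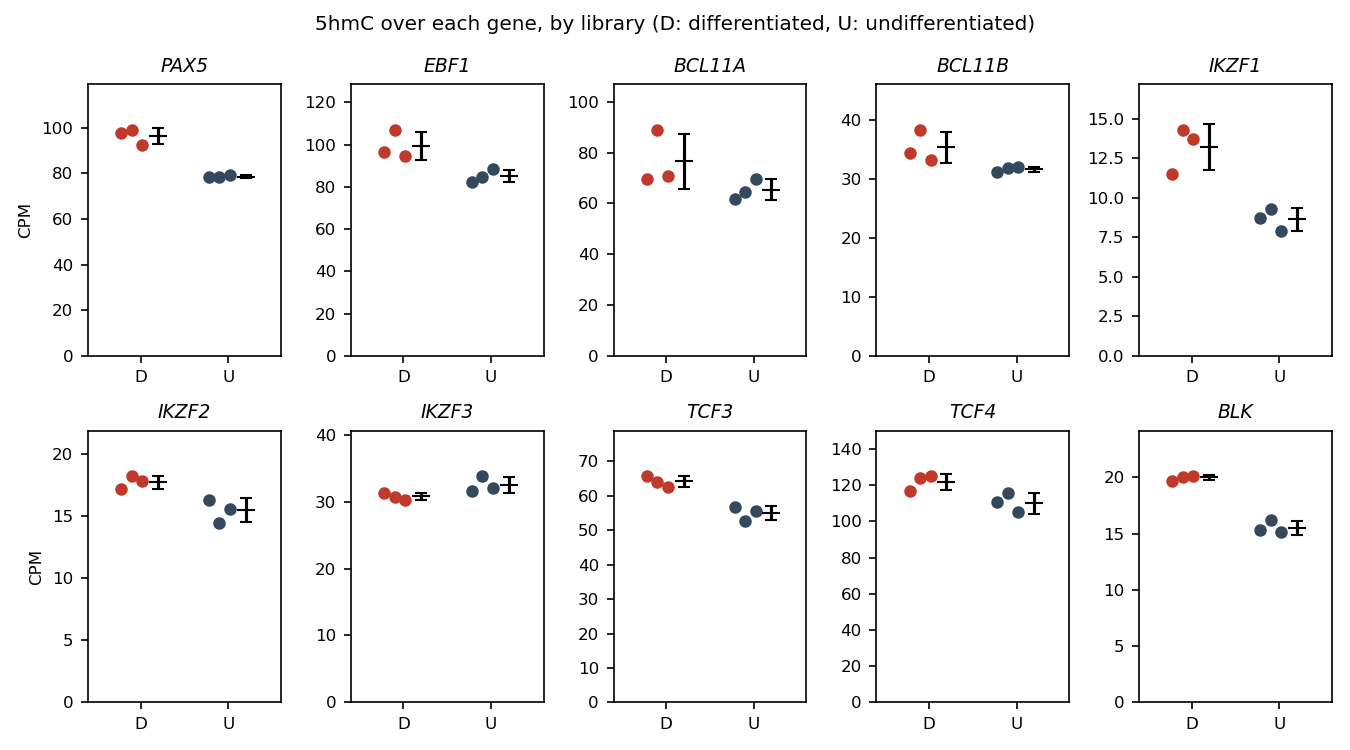
5hmC over the 10 genes in read counts scaled to library size (CPM; y axis from 0) for 3 differentiated (D, left) and 3 undifferentiated (U, right) libraries, with the mean and SD (n = 3) beside the points. IKZF3 is the gene whose differentiated libraries all lie below the undifferentiated ones; for BCL11A the states overlap, and for the other 8 genes all D points lie above all U points.

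PAX5 carried more 5hmC in differentiated cells. In CPM, counts scaled to library size, its 37 regions summed to 97.5, 99.1 and 92.6 CPM in differentiated and to 78.3, 78.3 and 79.1 CPM in undifferentiated replicates 1, 2 and 3. The states did not overlap, and the means were 96.4 ± 3.38 and 78.6 ± 0.488 CPM (SD, n = 3). The log2 fold change was 0.29 (SE 0.0502, adjusted p = 0.000443); it was 0.09 with library totals and 0.11 with strong-region factors and did not pass under either. Of the 37 regions 15 were higher and 3 lower, and 1 is also annotated to MIR4540, a microRNA gene.

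The largest rise and the largest fall along PAX5 lay 400 bases apart. The region at chr9:36929001-36929600 held 2.99, 2.47 and 2.68 CPM in differentiated and 1.41, 1.28 and 0.801 CPM in undifferentiated libraries (log2 fold change 1.15, SE 0.212, adjusted p = 3.64e-05). Its neighbour at chr9:36930001-36930400 held 0.288, 0.548 and 0.767 CPM in differentiated and 1.36, 1.19 and 1.17 CPM in undifferentiated libraries (-1.11, SE 0.305, adjusted p = 0.00291). Neither pair of groups overlapped, and both calls held under every scaling and without any single library. The counts behind the falling region were small, 5 to 24 reads in differentiated libraries and 19 to 49 in undifferentiated ones.

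At the PAX5 start itself no difference was detected. The region over the start at chr9:37033401-37034200, in a CpG island, averaged 2.79 ± 0.69 CPM in differentiated and 2.44 ± 0.338 CPM in undifferentiated cells, with overlapping libraries (0.13, SE 0.185, adjusted p = 0.547); the estimate was -0.07 and -0.06 under the other scalings. A second island region 1325 bases from the start, at chr9:37035801-37036600, was higher. It held 5, 4.2 and 4.57 CPM in differentiated and 2.8, 2.96 and 2.83 CPM in undifferentiated libraries (0.69, SE 0.159, adjusted p = 0.00052).

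In 5mC, PAX5 changed in both directions along its length and little in sum. Its 8 listed regions summed to 46.5, 41.4 and 47.6 CPM in differentiated and 44.5, 40 and 38.2 CPM in undifferentiated libraries, which overlap (0.15, SE 0.0715, adjusted p = 0.0527). With the other scalings the estimate was -0.16 and -0.18 and passed as lower. Listed 5mC regions had been chosen for small p-values in this same comparison. Gene sums, gaps between states and gene-level p-values of 5mC, here and below, carry no correction for that choice. By region 3 were higher and 4 lower. The 3 higher ones, at chr9:36842801-36843400 (0.61), chr9:36854001-36854800 (0.40) and chr9:36900001-36900400 (0.80), have lower coordinates than the 4 lower ones, at chr9:36909601-36910000 (-0.81), chr9:36950401-36951000 (-0.88), chr9:36984201-36984600 (-1.04) and chr9:37003001-37003800 (-0.70). The gene is read from the minus strand, so the lower ones lie nearer its start. The rises did not pass under the other scalings, and of the 4 falls 1, at chr9:36950401-36951000, also passed without any single library. DESeq2 called 0 of the 8 regions, with 3 higher and 4 lower at an unadjusted p under 0.05. Their order along the gene was looked at after the values were seen.

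EBF1, whose product works with PAX5 in B-cell precursors, had more of both marks in differentiated cells. In 5hmC its 42 regions summed to 96.7, 107 and 94.5 CPM in differentiated and 82.5, 84.8 and 88.4 CPM in undifferentiated libraries. The states did not overlap (log2 fold change 0.22, SE 0.0573, adjusted p = 0.00657), and the estimate was 0.02 and 0.04, not passing, under the other scalings. Of the 42 regions 19 were higher and 6 lower. Of these, 9 higher and 1 lower call held under all scalings and without any single library, the largest number of higher calls of this kind among the 10 genes.

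The strongest EBF1 region lay over its start. At chr5:158524801-158527400 it spans 2600 bases in a CpG island, held 12.8% of the gene's 5hmC, and measured 12.1, 16.1 and 12 CPM in differentiated against 10.9, 8.59 and 11.3 CPM in undifferentiated libraries (0.36, SE 0.154, adjusted p = 0.0421). The gap between the states was narrow, and the call was lost with either other scaling (0.14 and 0.17), with DESeq2 and without any of 4 libraries (D1, D2, U1 or U2). A small region 1413 bases from the start, at chr5:158528201-158528600, changed more. It held 2.42, 2.1 and 1.98 CPM in differentiated and 0.831, 0.889 and 1.11 CPM in undifferentiated libraries (1.22, SE 0.238, adjusted p = 7.78e-05). The largest rise inside the gene, at chr5:158200001-158200400, was 1.30 (SE 0.259), and the largest fall, at chr5:158299801-158300200, was -0.93 (SE 0.228); the states did not overlap in either.

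The 5mC list held 8 EBF1 regions. They summed to 53.5, 55.5 and 52 CPM in differentiated and 41.8, 36.6 and 42.8 CPM in undifferentiated libraries, with a clear gap (0.41, SE 0.0682, adjusted p = 3.82e-07). The estimate was 0.10 and 0.08 under the other scalings and did not pass. Of the 8 regions 3 were higher and 0 lower by edgeR, 6 and 2 had an unadjusted p under 0.05, and DESeq2 called 0. The list was chosen for small p-values, so the unadjusted counts are no support for a change. The largest called rise, at chr5:158247001-158247400, was 0.68 higher (SE 0.24, adjusted p = 0.0418) and lost its call without any single library.

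TCF3 and TCF4 encode E proteins, which bind the E-box; TCF3 yields E12 and E47. TCF3 5hmC summed to 65.7, 64.1 and 62.7 CPM over 13 regions in differentiated and to 56.7, 52.8 and 55.6 CPM in undifferentiated libraries. The states did not overlap (log2 fold change 0.22, SE 0.052, adjusted p = 0.0036), and the estimate was 0.02 and 0.04, not passing, under the other scalings. A single region at chr19:1627601-1629200 held 41.3% of this signal and did not pass (0.20, SE 0.164, adjusted p = 0.286). Of the 13 regions 4 were higher and 1 lower, with estimates from -0.55 to 0.82. The region at chr19:1645201-1646800, in a CpG island, held 5.23, 2.92 and 4.98 CPM in differentiated and 2.96, 2.57 and 1.97 CPM in undifferentiated libraries. D2 lay just under U1, so the states overlap; the rise was 0.82 (adjusted p = 0.000177) and is the 1 TCF3 call that held under all scalings and without any single library. The largest rise with no overlap, at chr19:1614201-1615800, also in an island, was 0.57 (SE 0.156, adjusted p = 0.00273) and did not pass without D3 (0.41). The region 1473 bases from the TCF3 start, at chr19:1653801-1654400, averaged 1.05 ± 0.313 CPM in differentiated and 1.06 ± 0.249 CPM in undifferentiated cells (0.18, SE 0.275, adjusted p = 0.571). That estimate was -0.02 and -0.0089 under the other scalings.

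TCF4 was the gene with the most regions, 54 in 5hmC and 18 in 5mC. Its 5hmC summed to 117, 124 and 125 CPM in differentiated and 111, 116 and 105 CPM in undifferentiated libraries. The lowest differentiated library lay just above the highest undifferentiated one (0.14, SE 0.0547, adjusted p = 0.0399), and the estimate turned to -0.06 and -0.03 under the other scalings. The call was also lost with DESeq2 and without D3, U1 or U3. Single regions differed more, and 15 were higher and 5 lower, with a range from -0.99 at chr18:52993401-52993800 to 1.38 at chr18:53051601-53052400. The region with that rise held 1.44, 1.92 and 1.5 CPM in differentiated and 0.775, 0.543 and 0.308 CPM in undifferentiated libraries.

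The deposited annotation placed 9 of the TCF4 5hmC regions within 2 kb of one of its starts. Of these, 2 were higher: chr18:52969801-52971600 (0.85, SE 0.195) and chr18:53072801-53074600 (0.56, SE 0.174). In contrast, chr18:52989001-52989800 was lower (-0.63, SE 0.162), with 3.74, 2.56 and 3.1 CPM in differentiated and 4.76, 4.3 and 5.85 CPM in undifferentiated libraries. The other 6 did not pass. Their estimates were -0.20 at chr18:52968201-52969200, 0.23 at chr18:53089201-53089600, 0.38 at chr18:53090001-53091400, 0.20 at chr18:53254001-53255000, -0.46 at chr18:53302001-53303000 and 0.23 at chr18:53303401-53304600, and in 5 of these regions the states overlap, the exception being chr18:53303401-53304600. The rise at chr18:53072801-53074600 did not pass under the other scalings, while the other rise and the fall passed.

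**Figure D2:**
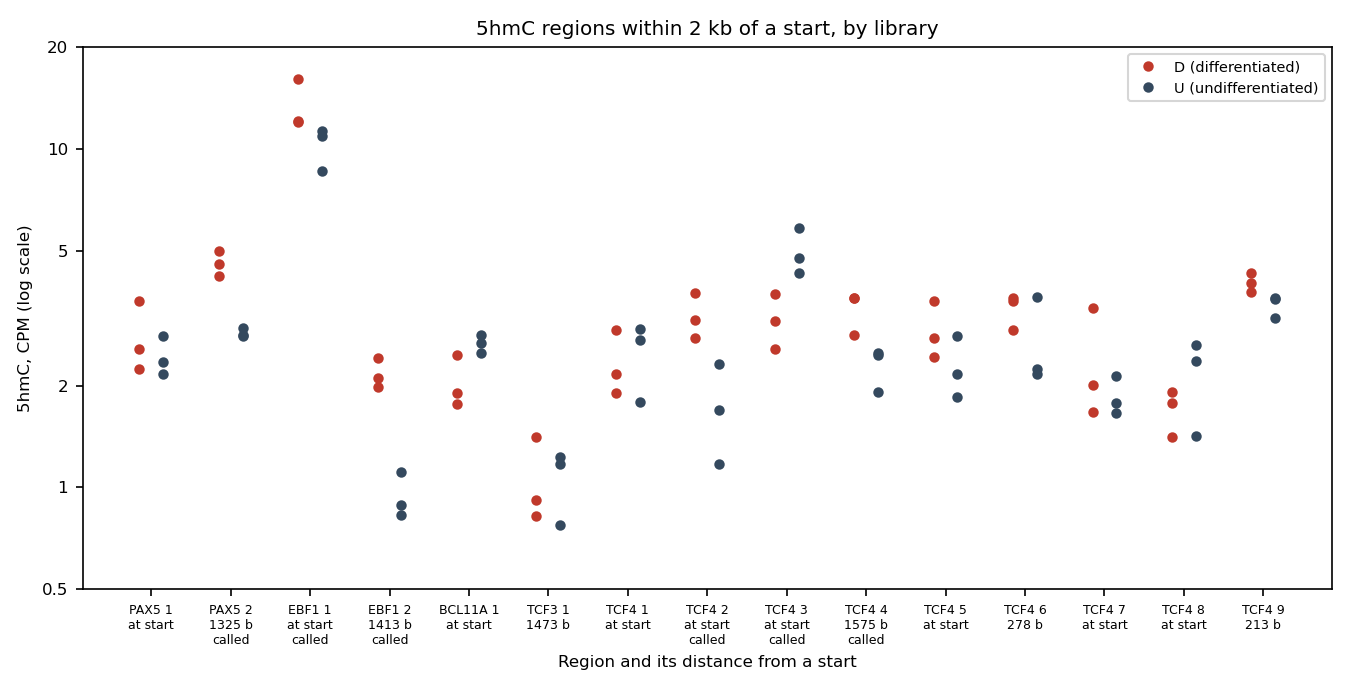
5hmC in CPM (log scale) in the 15 regions within 2 kb of a start, with 3 differentiated (red, left) and 3 undifferentiated (dark, right) libraries per region; under each name stand the distance from the start in bases and whether the region passed an adjusted p of 0.05. The regions away from the PAX5 and EBF1 starts (1325 and 1413 bases) show a gap between the states, while the region over the PAX5 start does not.

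TCF4 had the highest summed 5mC of the 9 genes in the list, spread over its 18 regions. It summed to 194, 199 and 182 CPM in differentiated and 154, 156 and 157 CPM in undifferentiated libraries (0.30, SE 0.042, adjusted p = 2.05e-09). The states were well apart, yet the estimate was -0.0052 and -0.03 under the other scalings. By region 6 were higher and 5 lower with edgeR, and DESeq2 called 0 higher and 0 lower. The region at chr18:53089201-53091400, over a start, held 22.2% of the sum, with 42.5, 44.9 and 42.4 CPM in differentiated and 34.3, 36.6 and 30.1 CPM in undifferentiated libraries (0.36, SE 0.0834, adjusted p = 0.00154). The other listed regions near starts were chr18:53073201-53074800, higher by 0.51 (adjusted p = 0.0116), and chr18:52967201-52970000, at 0.27 (adjusted p = 0.059). The largest rise, at chr18:52946801-52947200, had 6.89, 6.48 and 6.65 CPM in differentiated and 4.05, 4.52 and 3.33 CPM in undifferentiated libraries (0.75, SE 0.201, adjusted p = 0.00629) and did not pass without U3. The largest fall, at chr18:53275401-53275800, was -1.09 (SE 0.265, adjusted p = 0.0028) and held under all scalings and without any single library, though not with DESeq2 (adjusted p = 0.103), whereas none of the 6 rises passed under the other scalings.

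Among the Ikaros family IKZF1 had the largest relative rise in 5hmC of the 10 genes. Its 6 regions summed to 11.5, 14.3 and 13.7 CPM in differentiated and 8.7, 9.31 and 7.87 CPM in undifferentiated libraries, without overlap. The log2 fold change was 0.60 (SE 0.0964, adjusted p = 0.000283), and it passed with library totals (0.41), with strong-region factors (0.43), with DESeq2 and without any single library. By edgeR 4 regions were higher and 0 lower; none had an unadjusted p under 0.05 in the lower direction, and DESeq2 called 2 higher and 0 lower. The largest rise, at chr7:50460401-50461800, had 3.39, 2.47 and 3.74 CPM in differentiated and 1.72, 2.27 and 1.11 CPM in undifferentiated libraries (0.95, SE 0.194, adjusted p = 0.000139). In 5mC a single IKZF1 region was listed, at chr7:50438401-50439000. As a gene it measured 6.32, 6.04 and 5.38 CPM in differentiated and 5.04, 3.71 and 2.97 CPM in undifferentiated libraries (0.59, SE 0.21, adjusted p = 0.0095). As a region it did not pass (adjusted p = 0.0683), and the gene-level call was lost under the other scalings (0.28 and 0.26), with DESeq2 and without U3.

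IKZF2 had a fall in 5mC and a rise in 5hmC that few of the fits kept. Its 8 5hmC regions summed to 17.2, 18.2 and 17.8 CPM in differentiated and 16.3, 14.4 and 15.6 CPM in undifferentiated libraries (0.19, SE 0.0696, adjusted p = 0.037). That call was lost in 5 of 6 fits that left out a library and with DESeq2, and the estimate was -0.002 with library totals and 0.01 with strong-region factors. Its 1 listed 5mC region, at chr2:213948001-213948600, was lower. It held 2.48, 2.21 and 1.72 CPM in differentiated and 4.59, 6.02 and 3.33 CPM in undifferentiated libraries, from 15 to 22 reads and 23 to 40 reads (-1.11, SE 0.257, adjusted p = 0.00159). The fall held under all scalings and without any single library, but as a region it did not pass with DESeq2 (adjusted p = 0.079). The 5hmC region at the same place, chr2:213948001-213948400, was lower as well (-0.59, SE 0.212, adjusted p = 0.018), a call lost with DESeq2 and without D1, D3 or U1, while the largest 5hmC rise lay at chr2:213953801-213954200 (0.83, SE 0.234, adjusted p = 0.00366).

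IKZF3 was the gene with the most balanced 5hmC regions, 5 higher and 5 lower of 16. They summed to 31.3, 30.7 and 30.3 CPM in differentiated and 31.6, 33.8 and 32.1 CPM in undifferentiated libraries. All differentiated libraries were lower, by little (-0.08, SE 0.0551, adjusted p = 0.239), and the gene passed as lower with library totals (-0.27) and strong-region factors (-0.25). The largest fall of any region in the 10 genes was at chr17:37920601-37920800, with 0.46, 0.274 and 0.192 CPM in differentiated and 1.19, 1.04 and 0.678 CPM in undifferentiated libraries (-1.81, SE 0.386, adjusted p = 0.000238). It is 200 bases wide and rests on 3 to 8 reads in differentiated and 11 to 43 in undifferentiated libraries. The largest rise, at chr17:37967201-37968000, was 0.71 (SE 0.16, adjusted p = 0.000402). In 5mC all 4 listed regions had lower estimates and 2 passed, and DESeq2 called 0. None had a higher estimate with an unadjusted p under 0.05, but the list was chosen for small p-values. The gene measured 18.8, 19.1 and 16.3 CPM in differentiated and 25.6, 25.2 and 25.6 CPM in undifferentiated libraries (-0.50, SE 0.0986, adjusted p = 1.02e-05), a fall that passed in every fit over the whole gene.

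BCL11A had a rise in 5hmC that rested on unequal libraries. Its 20 regions summed to 69.8, 89 and 70.9 CPM in differentiated and 61.7, 64.4 and 69.8 CPM in undifferentiated libraries. The lowest differentiated and the highest undifferentiated library had the same value (0.22, SE 0.0814, adjusted p = 0.0351). The call was lost without U1 (0.18) or U2 (0.21), with DESeq2 and under the other scalings (0.02 and 0.04). A single region at chr2:60694001-60695400 held 42.4% of the signal, with 27.9, 46.5 and 25.3 CPM in differentiated and 25.3, 24.1 and 31.7 CPM in undifferentiated libraries (0.29, SE 0.178, adjusted p = 0.164), and D2 was the highest library there as in the gene. Away from it 7 regions were higher and 1 lower, from 1.14 at chr2:60765801-60766000 to -0.63 at chr2:60728401-60729000. Near the start, at chr2:60780401-60781000, the estimate went the other way: 1.9, 2.47 and 1.76 CPM in differentiated and 2.49, 2.67 and 2.83 CPM in undifferentiated libraries (-0.43, SE 0.192, adjusted p = 0.0536). Without D2 it passed as lower (-0.54), and so it did under the other scalings (-0.63 and -0.62). In 5mC the 2 listed regions gave 12.6, 14.3 and 18.7 CPM in differentiated and 12.2, 16 and 14.7 CPM in undifferentiated libraries, which overlap (0.10, SE 0.126, adjusted p = 0.467), and that estimate turned to -0.21 and -0.23 under the other scalings. Of these regions chr2:60741401-60742400 was lower, with 4.74, 4.14 and 4.59 CPM in differentiated and 5.67, 7.53 and 6.8 CPM in undifferentiated libraries (-0.56, SE 0.194, adjusted p = 0.0388). The states did not overlap there, but the call was lost with DESeq2 and without any of 5 libraries (all but U1). The other, chr2:60736401-60737600, was at 0.41 and did not pass (adjusted p = 0.0642).

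BCL11B differed most clearly in 5mC. All 8 listed regions had higher 5mC in every differentiated library than in any undifferentiated one, where 43.1% of all listed regions did. They summed to 92.1, 96.1 and 91.6 CPM in differentiated and 70.1, 68.2 and 64.7 CPM in undifferentiated libraries (0.46, SE 0.0534, adjusted p = 4.52e-12). The gene passed in every scaling, by 0.15 with library totals and 0.13 with strong-region factors, and without any single library. Its regions had been listed for small p-values in these same libraries, so the gap and these calls are not independent support. The changes of single regions were even, from 0.30 to 0.80, and 2 of the 8 passed the adjustment over 328588 tests, with 0 lower; all 8 had an unadjusted p under 0.05, and DESeq2 called 0. The largest was at chr14:99646401-99646800 (0.80, SE 0.256, adjusted p = 0.0228). In 5hmC its 13 regions summed to 34.5, 38.4 and 33.3 CPM in differentiated and 31.2, 31.9 and 32 CPM in undifferentiated libraries (0.15, SE 0.0608, adjusted p = 0.0588), with estimates of -0.05 and -0.03 under the other scalings. Of the 13 regions 4 were higher and 2 lower, with estimates from -0.78 to 0.80. Of the 4 higher calls 0 held under all 3 scalings. The 2 lower calls held under the scalings, but 0 of them also held without any single library. The largest 5hmC rise without overlap, at chr14:99639601-99640600 in a CpG island, was 0.80 (SE 0.252, adjusted p = 0.0082).

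BLK, the kinase, rose in both marks. Its 7 5hmC regions summed to 19.7, 20 and 20.1 CPM in differentiated and 15.3, 16.2 and 15.1 CPM in undifferentiated libraries, narrow and far apart (0.36, SE 0.0631, adjusted p = 0.000494). The gene passed with strong-region factors (0.19) and not with library totals (0.17). Of its regions 4 were higher and 1 lower. The largest rise was at chr8:11391001-11391400, with 1.73, 1.92 and 1.09 CPM in differentiated and 0.36, 0.741 and 0.739 CPM in undifferentiated libraries (1.37, SE 0.304, adjusted p = 0.00036), and the fall was at chr8:11384801-11385400 (-0.86, SE 0.307, adjusted p = 0.0178). The strongest region, chr8:11416601-11418000, held 42.1% of the signal and measured 9.38, 8.77 and 8.98 CPM in differentiated and 6.15, 6.32 and 5.3 CPM in undifferentiated libraries (0.60, SE 0.144, adjusted p = 0.000818). The 1 listed 5mC region lies inside it, at chr8:11416801-11417400. It held 3.73, 4 and 4.93 CPM in differentiated and 2.03, 1.81 and 3.47 CPM in undifferentiated libraries (0.79, SE 0.257, adjusted p = 0.0254). These values come from 29 to 43 reads in differentiated and 12 to 24 in undifferentiated libraries. The region did not pass under the other scalings, with DESeq2 or without D3, U1 or U2.

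**Figure D3:**
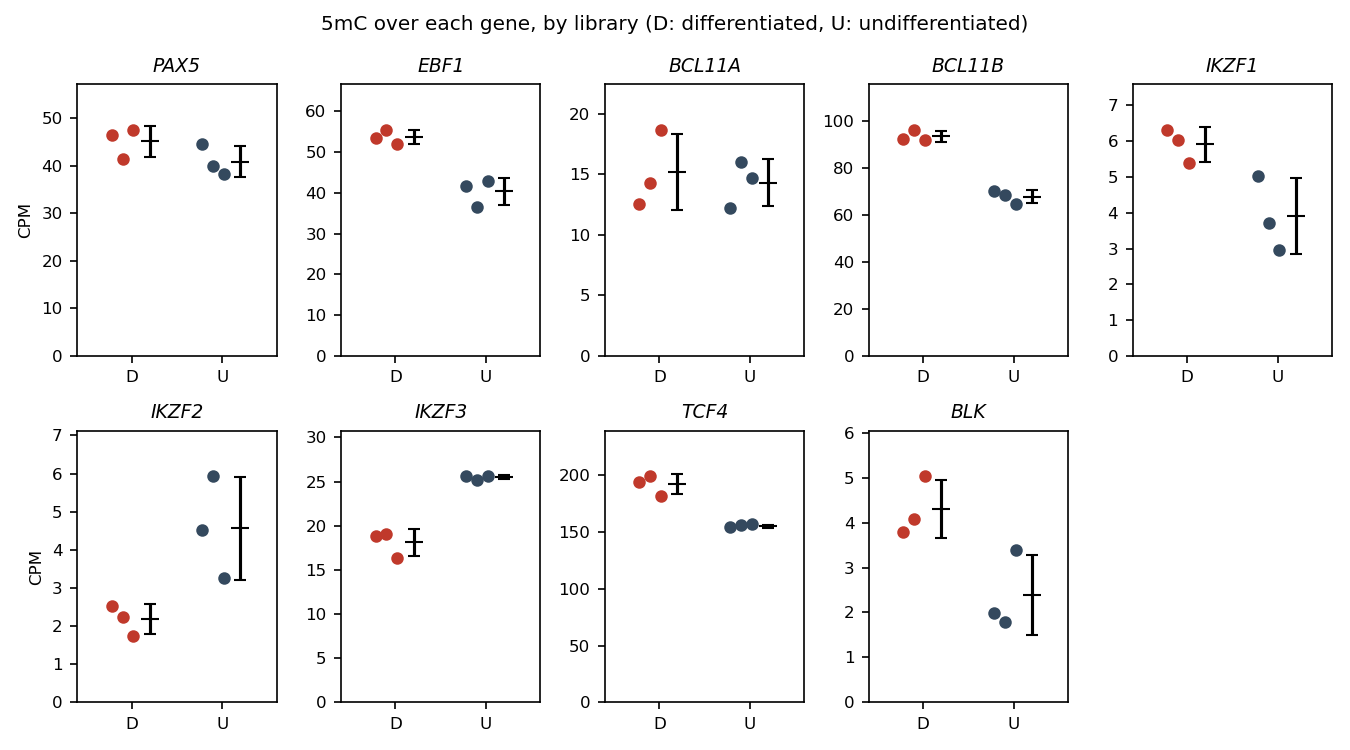
5mC summed over the listed regions of 9 genes in CPM (y axis from 0) for 3 differentiated (D, left) and 3 undifferentiated (U, right) libraries, with the mean and SD (n = 3). IKZF2 and IKZF3 lie lower in differentiated cells, EBF1, BCL11B, IKZF1, TCF4 and BLK higher, and PAX5 and BCL11A overlap.

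In 5mC as a whole 5 of the 9 genes were higher (EBF1, BCL11B, IKZF1, TCF4 and BLK) and 2 lower (IKZF2 and IKZF3), against 41% and 43.2% of all listed genes. The median log2 fold change was 0.30 over the 9 genes and 0.0019 over all genes. Of their 51 regions 15 (29.4%) were higher and 13 (25.5%) lower, against 35.7% and 37.1% of all listed regions. Both shares were under those of the whole list. The median log2 fold change over these regions was 0.36, and over all listed regions 0.22. Every differentiated library was above every undifferentiated one in 27 regions and below in 13, against 43.1% and 43% of listed regions, and in 5 and 2 genes, against 39% and 38.8% of genes. The list had been chosen for small p-values, so these shares say nothing about regions outside it, and gene-level p-values carry no correction for that choice. Under library totals 1 gene was higher (BCL11B) and 3 lower (PAX5, IKZF2 and IKZF3), as under strong-region factors. The all-gene median was then -0.31 and -0.33, and 17.1% and 14.4% of called genes were higher, against 48.7% with TMM. Of called regions 7.11% and 5.87% were higher, against 49.1%. None of the 15 higher region calls held under the 3 scalings. Of the 13 lower ones 3 held under the scalings and without any single library, in PAX5, IKZF2 and TCF4.

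**Figure D4:**
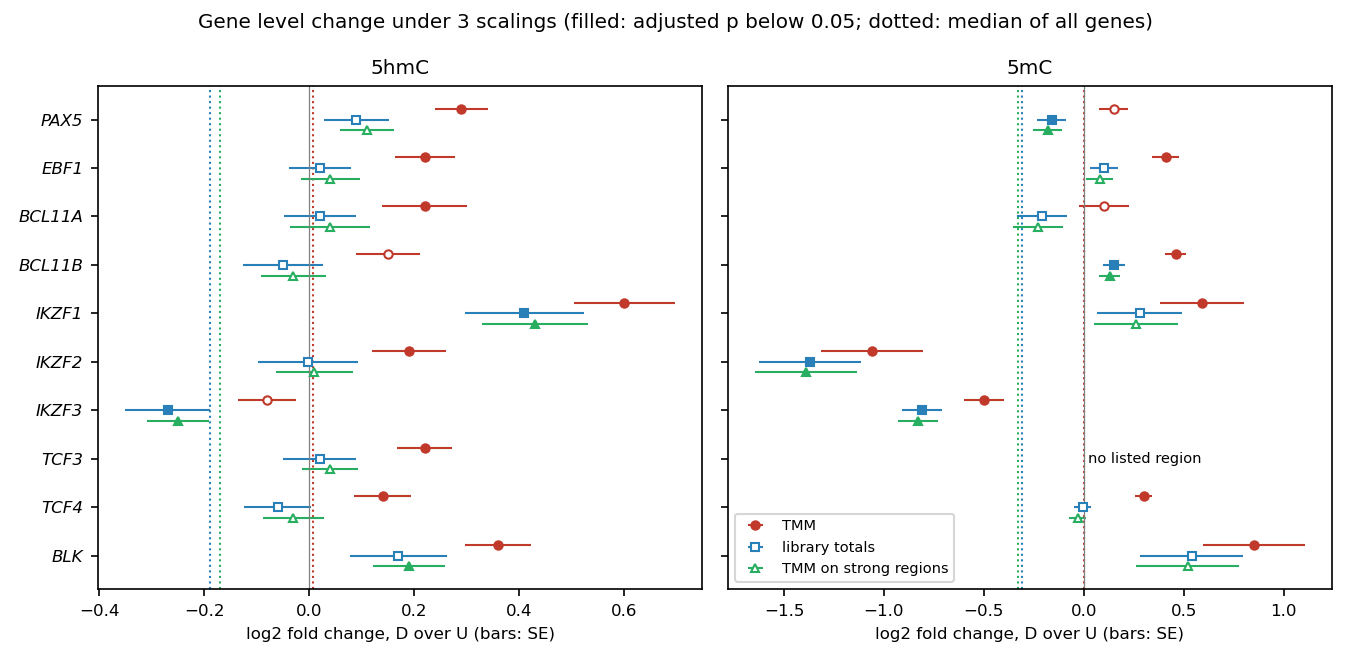
Log2 fold change of each gene, differentiated over undifferentiated (x axis; bars are SE), under TMM (circles), library totals (squares) and TMM on strong regions (triangles); filled points passed an adjusted p of 0.05 and dotted lines are the medians of all genes. IKZF1 in 5hmC and BCL11B, IKZF2 and IKZF3 in 5mC are filled under all 3.

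Per length of listed region, 5hmC in differentiated cells was highest at BCL11A (4.45 CPM per kb, against 3.80 in undifferentiated cells), BLK (4.17, against 3.23) and TCF3 (4.01, against 3.44). In undifferentiated cells BCL11A, TCF3 and BCL11B (3.37, against 3.77 in differentiated cells) were highest. IKZF3 had the lowest level in differentiated cells (2.23, against 2.36 in undifferentiated cells) and IKZF1 in undifferentiated cells (2.16, against 3.30 in differentiated cells). Levels of 5mC per length ran from 3.63 CPM per kb at IKZF2 to 10.4 at BCL11B in differentiated cells and from 3.98 at BLK to 8.33 at TCF4 in undifferentiated cells. A single region held 42.4% of the 5hmC signal of BCL11A, 42.1% of that of BLK and 41.3% of that of TCF3, so these levels rest largely on 1 region each. Levels of different genes were not corrected for copy number or CpG content. Levels of the 2 marks come from different antibodies and tables and were not compared.

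CpG islands held 10 of the 216 5hmC regions (4.63%, against 1.73% of all) and 0 of the 51 5mC regions (2.35% of all). The 10 lay in PAX5 (3), TCF3 (3), BCL11A (2), EBF1 (1) and BCL11B (1), and 6 of them were higher in differentiated cells, against 41.9% of all 5hmC regions in islands. Of the 6, that at EBF1 did not pass under either other scaling and that at BCL11B not with library totals, DESeq2 or without D3. Median widths were those of the tables, 600 bases for 5hmC and 800 for 5mC.

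At least 1 base of a 5hmC region lay under 32 of the 51 5mC regions (62.7%, against 67.8% of all) and 35 of the 216 5hmC regions touched a 5mC region (16.2%, against 14.3%). These overlaps form 35 pairs, of which 6 passed in both marks, against 47.4% of all such pairs. The pair in BLK and that in IKZF2 are given above. In PAX5 the pair at chr9:36984201 was -1.04 in 5mC and -0.56 in 5hmC, and in IKZF3 the pair at chr17:37958001 and chr17:37958201 was -0.56 in 5mC and -0.95 in 5hmC. In TCF4 the pair at chr18:53163401 was -0.73 and -0.71, and that at chr18:53073201 and chr18:53072801 was 0.51 and 0.56, in 5mC and 5hmC in that order. Both marks were measured on the same DNA preparations, so the pairs are not independent.

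**Figure D5:**
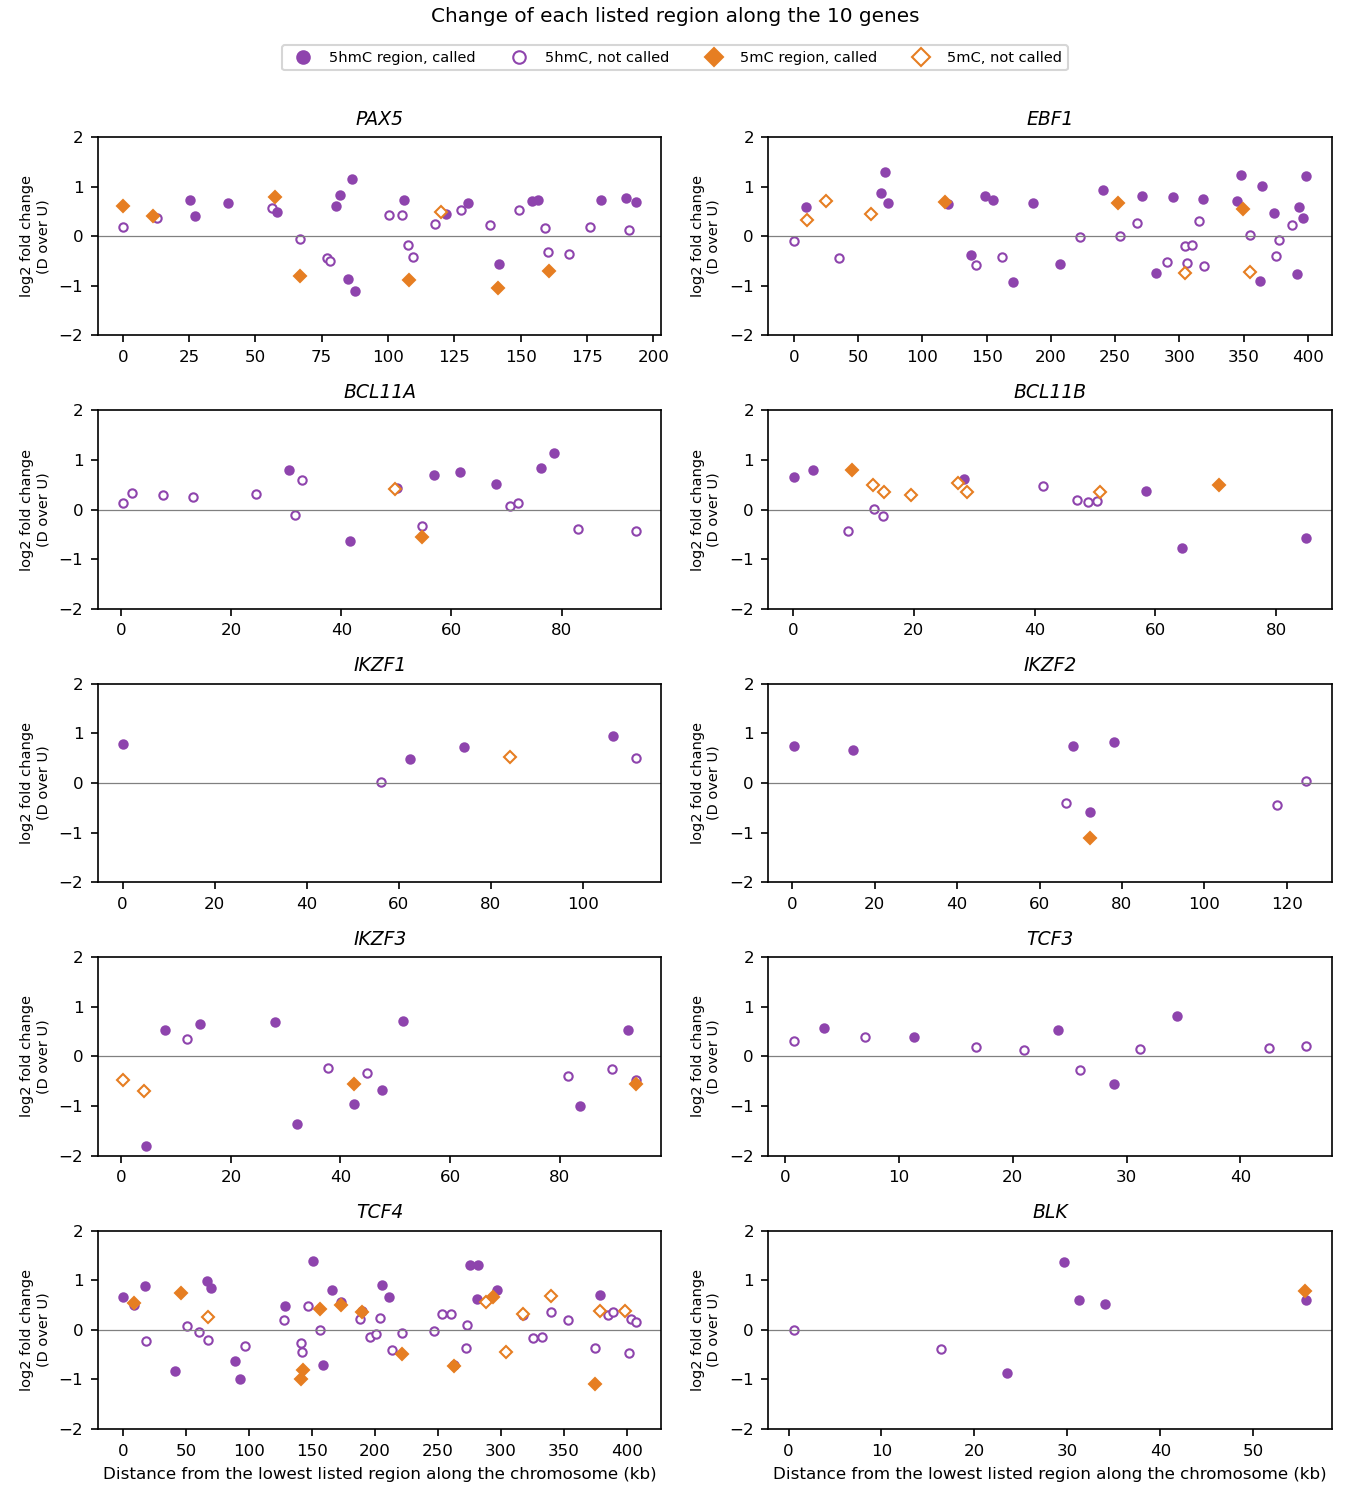
Log2 fold change (differentiated over undifferentiated) of each listed region against its distance in kb from the lowest region along the chromosome, for 5hmC (circles) and 5mC (diamonds); filled symbols passed an adjusted p of 0.05. Filled circles lie on both sides of 0 in every gene but IKZF1, and the 8 diamonds of BCL11B all lie above 0.

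Other lymphoid genes give the background for these 10. Of 40 further lymphoid transcription factor genes with 5hmC regions 11 were higher and 6 lower, against 25.8% of all genes in each direction, with a median log2 fold change of 0.10 against 0.0065. They included ETS1 (0.34) as higher and the T-cell factor EOMES (-0.60) as lower. The E-protein inhibitor ID3 was also lower (-0.98), from 6 to 14 reads in differentiated and 20 to 39 in undifferentiated libraries. Under library totals 1 of the 40 was higher and 13 lower, without U1 6 and 3, and without D3 11 and 2. In 5mC 18 of 34 were higher and 10 lower, against 41% and 43.2% of all genes, with a median of 0.30; ETS1 (0.66) and MEF2C (0.65) had the largest rises and LEF1 (-0.96) and STAT5B (-0.87) the largest falls, and under library totals 7 were higher and 14 lower.

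Of 19 B-cell receptor and pre-B genes 2 were higher in 5hmC, the kinase gene BTK (0.84) and CD72 (0.30). None was lower by edgeR or DESeq2, with 2 and 1 at an unadjusted p under 0.05. With library totals 1 was higher and 2 lower, and without D3 4 were higher. These counts stand against the same shares of all genes, 25.8% in each direction for 5hmC and 41% and 43.2% for 5mC, as do those of the next lists. In 5mC 3 of 10 were higher, with PTPRC (0.72), a listed gene not particular to B cells, and BLNK (0.68) the largest. The other direction held 6, with CIITA, the activator of class II genes (-1.66), and FCRLA (-0.66) the largest falls. The CIITA value rests on 8 to 13 reads in differentiated and 20 to 36 in undifferentiated libraries. Of 17 T-cell genes 5 were higher in 5hmC, with the costimulatory receptor gene CD28 (0.61) and CD5 (0.31, with overlapping libraries) the largest, and PTCRA was lower (-0.37). The 5 became 2 with DESeq2 or without D1, 1 without U1, 3 without U3 and 1 with library totals, where 6 were lower. In 5mC 2 of 10 were higher (CD8B, 0.58, and ZAP70, 0.42) and 8 lower, with CD3G (-0.66) and CD6 (-0.61) the largest falls; DESeq2 called 1 lower, and 4 were lower without U1 and 5 without D1. Among 8 SRC-family relatives of BLK, FRK was higher in 5hmC (0.39). In 5mC YES1 was higher (0.18, and -0.13 and -0.15 under the other scalings) and 5 were lower, with FYN (-0.92) and FGR (-0.87) the largest.

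The depth behind these values was 12772192 to 31793062 counts in 5hmC regions of differentiated and 15371987 to 33165985 of undifferentiated libraries. The listed 5mC regions held 7921082 to 9643728 and 6059262 to 6837116 counts, which are not the depth of those libraries. Marker lists of other cell types were summed as values only. In 5hmC 4 B-cell markers gave 30.3 to 30.8 CPM in differentiated and 24.6 to 31.8 CPM in undifferentiated libraries, and 4 T-cell markers 31.9 to 34.2 and 28.3 to 31.2 CPM. Sums of 4 monocyte markers were 55.2 to 60.2 CPM in differentiated and 47.4 to 51.2 CPM in undifferentiated libraries, without overlap. Those of 14 neutrophil maturation genes were 185 to 196 and 177 to 185 CPM, and those of 5 promyelocyte genes 52.7 to 56.6 and 55.6 to 60.7 CPM. In 5mC the sums of listed promyelocyte genes (4) were 40.5 to 48.4 CPM in differentiated and 57.8 to 62.2 CPM in undifferentiated libraries. The 2 listed B-cell markers gave 14.8 to 16.6 and 20.1 to 26.3 CPM, and the 2 listed T-cell markers 8.61 to 10.2 and 13.1 to 17.2 CPM, all lower in differentiated cells without overlap. The 7 listed neutrophil maturation genes gave 133 to 141 CPM in differentiated and 125 to 133 CPM in undifferentiated libraries, and the 1 listed monocyte gene 14 to 17.3 and 12.3 to 14.3 CPM. ITGAM, which encodes the CD11b used for sorting and was singled out for that, was 0.17 higher in 5hmC (adjusted p = 0.0329, overlapping libraries) and 0.16 higher in 5mC (adjusted p = 0.00438), and passed as higher in neither mark under the other scalings. In its list of 14, 3 were higher and 2 lower in 5hmC, and 3 of 7 higher and 4 lower in 5mC. Since DNA is captured whether or not a gene is used, these values do not show which cells were present, and their part in the results was not tested.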

How the data were processed

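Per the labels' protocols, genomic DNA was sheared, ligated to unmethylated adaptors and captured with antibodies against 5mC or 5hmC. Reads were handled on GRCh37 (hg19) with BWA, SICER 1.1, edgeR 2.11, bedtools 2.17.0 and SAMtools 0.1.18, per the submitters' processing notes. The authors deposited raw read counts per region and library for each mark, with regions on a 200-base grid; no source used here says if replicates were pooled to call them. They also deposited a log2 fold change, a mean log2 CPM and p-values per region, per the file headers, with distances in bases to genes, starts and CpG islands. The deposited log2 fold change runs from undifferentiated over differentiated: its sign was opposite to that computed here in 99.3% of 5hmC and 100% of 5mC regions. The 5mC table held 65535 regions with the largest deposited p-value at 0.0165 and adjusted p-value at 0.0826, which imply 328588 tests. Its region p-values were adjusted over that number, and since only selected regions inform the estimate of spread, p-values can be too small. The rows ran in order of p-value, so the list may have been cut at a number of rows and not at a chosen p-value, which was not tested. A gene with no listed 5mC region, such as TCF3, may therefore have had regions beyond the cut. Rows with blank counts or annotation were left out (19 for 5hmC, 1 for 5mC).

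Counts were tested with edgeR 4.0.16 under R 4.3.3 and limma 3.58.1 (quasi-likelihood F test, filterByExpr, TMM, Benjamini-Hochberg adjustment, threshold 0.05), differentiated over undifferentiated with 3 libraries each. All adjusted p-values are from this test unless DESeq2 (1.42.0) is named, and tests ran over the whole table of each mark. CPM are counts divided by TMM-scaled totals of each deposited region list; sums over a gene's regions and single regions use separate TMM factors. The scripts were tested on simulated counts. Exact permutation of 3 against 3 libraries cannot go below p = 0.1 and was not used. The replicates are biological per the labels.

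All 10 genes are named. Of each gene and mark, the region with the largest called rise and fall without overlap is named, and every region within 2 kb of a start; the strongest regions, the island regions, regions that overlap between marks and the PAX5 5mC regions were added after their values were seen. Of the other lists at most 2 rises and 2 falls per mark are named, and some that the rule names are not reported here. Members and lists were chosen with earlier results of these data known. Alternatives were library totals without TMM, TMM on the strongest 25% of regions, DESeq2, no filter, a replicate block, leaving out each library, other rules for a gene's regions and, for 5mC, adjustment over listed regions only.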

Additional observations from a re-analysis of the deposited data

How the results depend on the processing

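With library totals without TMM, 5hmC was higher in 1 of the 10 genes and 40 regions and lower in 1 gene and 50 regions; with TMM on strong regions the counts were 2 genes and 43 regions higher and 1 gene and 51 regions lower. In 5mC, 1 gene was higher and 3 were lower under either scaling, and 0 regions were higher and 18 lower. At an unadjusted p under 0.05 by edgeR, 6 5mC regions were higher with library totals and 5 with TMM on strong regions, and 18 were lower under each. DESeq2 called 5hmC higher in 5 genes and 36 regions and lower in 9 regions, and called 0 of the 5mC regions higher and 0 lower (15 and 14 at an unadjusted p under 0.05). Adjusted over listed regions only, 33 5mC regions were higher and 18 lower. With regions within 2 kb of a start only, 2 5hmC genes were higher and 1 lower of 5 tested, and 1 5mC gene was higher and 0 lower of the 1 tested. Leaving out single libraries gave 6 to 7 higher 5hmC genes, 0 to 0 lower ones, 45 to 82 higher and 14 to 26 lower 5hmC regions, 4 to 6 higher and 2 to 2 lower 5mC genes, 10 to 13 higher and 6 to 10 lower 5mC regions. The fewest came without D3 for higher 5hmC regions (45; 51 without U1) and without D3 for lower 5mC regions (6; 7 without D1, U2 or U3); lower 5hmC regions were 14 without D1 or U1 and 15 without D3.

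The replicate block left 5 of 8 higher 5hmC genes (BCL11A, IKZF2 and TCF4 were lost), 65 higher and 24 lower 5hmC regions, and in 5mC 5 higher and 2 lower genes and 15 higher and 13 lower regions. Deviations of same-numbered libraries correlated at 0.000533, -0.0993 and -0.105 in 5hmC and 0.0113, 0.00558 and -0.0098 in 5mC. In 5hmC those of D3 and U2 and those of D2 and U3 each correlated at 0.101. These values do not show a pairing by number, and whether same-numbered libraries shared a batch was not tested.

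Estimates that changed sign with library totals and with TMM on strong regions were 5hmC of BCL11B (-0.05, -0.03) and TCF4 (-0.06, -0.03), the PAX5 region at 37033401 (-0.07, -0.06) and the TCF3 region at 1653801 (-0.02, -0.0089), and 5mC of PAX5 (-0.16, -0.18), BCL11A (-0.21, -0.23), TCF4 (-0.0052, -0.03) and YES1 (-0.13, -0.15). IKZF2 5hmC was -0.002 with library totals and the 5mC TCF4 region at 52967201 -0.003 with strong regions. BCL11A 5hmC was -0.53 within 2 kb of a start. Without single libraries BCL11A 5mC ran from -0.09 (without D3) to 0.23 and was -0.0096 without U1. The TCF3 region ran from -0.19 (without D3) to 0.33 and was -0.08 without U1. The PAX5 region ran from -0.003 (without D2) to 0.24 and the TCF4 region at 53254001 from -0.02 (without D2) to 0.36. All these but BCL11A, TCF4 and IKZF2 in 5hmC, and TCF4 and YES1 in 5mC, had not passed before. The cause was not tested. Narrow regions with few reads limit single-region calls.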
